A study of Homo sapiens with 6 samples.

Results

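The genes described here are 10 genes of TGF-beta and activin signaling in U87 cells. They are the ligand genes TGFB1, TGFB2, TGFB3 and INHBA, the receptor genes TGFBR1, TGFBR2 and TGFBR3, the latency gene LTBP1, the inhibitor gene SKIL and the matrix gene TGFBI. They were selected by name as members of the pathway, with earlier results of these data known, and all 10 were found among the 60671 genes of the deposited expression table. U87 is an established human glioblastoma cell line that the labels class as WHO grade IV. The control group (n = 3) received 0.1% DMSO for 48 h. The rutaecarpine group (n = 3) received 100 μM rutaecarpine, an alkaloid of Evodia rutaecarpa, for 48 h, diluted from a DMSO stock into serum-free medium. The study asked how rutaecarpine, an activator of the aryl hydrocarbon receptor (AhR), affects the migration of these cells.

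TGF-beta is secreted in a latent form, in which a propeptide covers the active dimer and latent TGF-beta binding proteins such as LTBP1 tether the complex to the extracellular matrix. Integrins, proteases and thrombospondin can release it. The active ligand joins the type II receptor TGFBR2 with the type I receptor TGFBR1, which phosphorylates SMAD2 and SMAD3, and these enter the nucleus with SMAD4. Activin A, a dimer of the product of INHBA, uses other receptors but the same SMAD proteins. In glioblastoma the pathway is known for its roles in invasion, in the mesenchymal state of the tumor cells and in suppression of immune cells.

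Expression was given in TPM, which scales the estimated reads of each gene by its length and then sets each library to a fixed total. TPM can therefore be compared between genes of a library. Read numbers cannot be recovered from TPM, so no counting error could be given. A TPM is a share of the RNA of a library, so a change in the number of cells that express a gene and a change in the RNA per cell cannot be told apart. The labels do not say whether the 3 libraries of a group came from separate cultures, and the p values then measure only the spread between these libraries. Over the tested genes, the median log2(TPM + 1) lay between 3.81 and 4.00 in 5 libraries and at 3.56 in control replicate 3. Among the marker genes, those of glial and glioma cells summed to between 8116 and 9807 TPM in the control libraries and between 6021 and 6571 TPM after rutaecarpine. This sum was mainly VIM, and SOX2 and S100B, which often mark glioma cells, were at 0 or close to it in every library. The other markers of this list did not all go the way of the sum. VIM and NES were lower after rutaecarpine, NES with 17.25 to 21.02 TPM in the control libraries and 12.29 to 13.61 TPM after rutaecarpine. OLIG2 was higher, with 1.48 to 1.73 TPM and 3.07 to 4.11 TPM. For GFAP, CD44, TNC and SOX9 the groups overlapped. Endothelial markers summed to at most 3.66 TPM and epithelial markers to at most 3.28 TPM. The blood markers held CD68, at 319 to 511 TPM, while PTPRC, the marker of all white blood cells, did not exceed 0.03 TPM. The neuronal markers, mainly TUBB3, summed to between 208 and 217 TPM in the control libraries and between 105 and 121 TPM after rutaecarpine. What part these markers have in the results below was not tested.

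Control replicate 3 was unlike the other controls, and this bears on most of the 10 genes. It had the lowest control TPM for 9 of the 10, the exception being TGFB1, where it was the highest. Among all tested genes, 62.3% had their lowest control value in that library. The TPM in control replicate 3 divided by the mean of control replicates 1 and 2 was 1.11 for TGFB1, 0.907 for TGFBI and 0.899 for TGFB3. The ratio was 0.675 for TGFBR2, 0.482 for LTBP1, 0.470 for TGFBR1 and 0.411 for TGFB2. The lowest ratios were 0.373 for INHBA, 0.294 for SKIL and 0.293 for TGFBR3. TGFB3 and TGFB1, with longest transcripts of 2708 and 2769 bases, were near the other controls, whereas SKIL, with 7182 bases, was far below them. The ratios did not follow length alone, since TGFBI with 4661 bases was near the other controls and TGFBR2 with 4621 bases was further below them. Over all tested genes, the median difference between control replicate 3 and the other controls on the log2(TPM + 1) scale was 0.08 for 3496 genes with transcripts under 2000 bases and -0.74 for 1103 genes over 8000 bases. The fold changes of the 10 genes are therefore given with control replicate 3 and without it, and also with the fit corrected for transcript length and GC content.

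**Figure D1:**
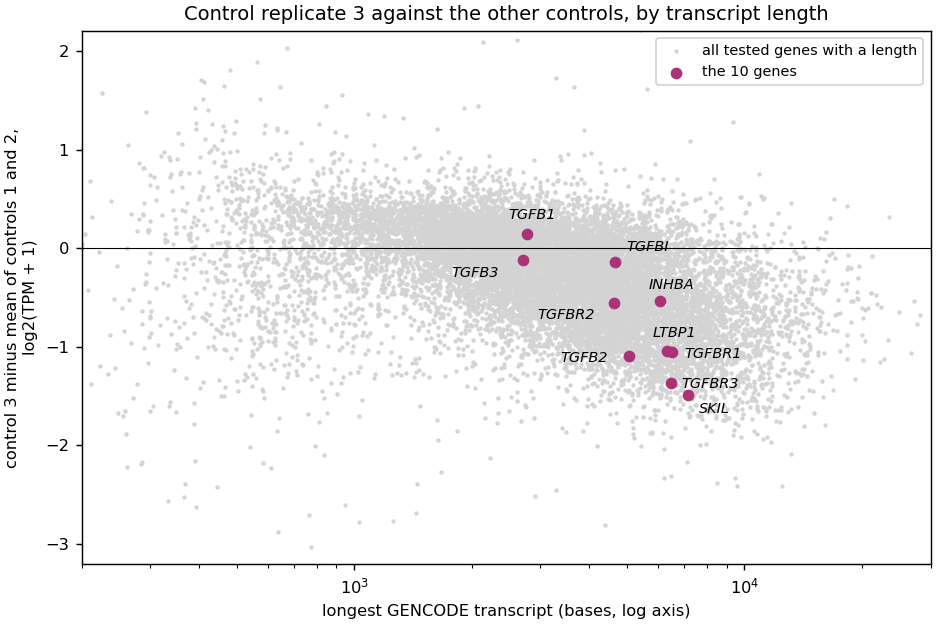
Difference between control replicate 3 and the mean of control replicates 1 and 2 in log2(TPM + 1) against the length of the longest annotated transcript in bases (log axis), for 14218 tested genes (grey) and the 10 genes (purple), with 49 genes outside the axes. The 3 genes closest to 0 are TGFB3, TGFBI and TGFB1, and the others lie below them.

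Short sets of letters were searched on both strands of the RefSeq promoter windows (GRCh38.p14, 250 bases before to 50 bases after each transcription start) because the study concerns AhR and because AP-1 and SMAD proteins serve TGF-beta signaling. They were the dioxin response element (CACGCNA, and its GCGTG core, whose reverse complement lies within it), the AP-1 site (TGANTCA) and the SMAD box (AGCCAGACA). All 10 genes matched, with 21 windows in all. The windows of the genes below held a match, and the capitals mark the matching letters.
TGFB1, dioxin response element from position -132, chr19:41354037-41354065, minus strand: cggagcccgccCACGCGAgatgaggacgg
TGFB3, GCGTG core from position -86 of the second start, chr14:75982066-75982092, minus strand: caaaagaggctGCGTGcgctggtccct
TGFBR3, GCGTG core from position -48, chr1:91886184-91886210, minus strand: cgtccccgcccGCGTGtgtgcgaggga
TGFBR2, AP-1 letters from position -6 of the second start, chr3:30606584-30606612, plus strand: ttgaagttgagTGAGTCActcgcgcgcac
The dioxin response element was in 1 of the 21 windows, that of TGFB1, and in 5.51% of all 35116 windows. The GCGTG core was in 10 of the 21 windows, from 6 of the 10 genes, and in 36.5% of all windows. TGFBR1 supplied 8 of the 21 windows, and some of them overlap and hold the same core letters, so the windows are not separate units. The AP-1 letters were in 1 of the 21 windows and in 7.71% of all, and the SMAD box in 0 of the 21 and in 0.288% of all. The windows of INHBA and TGFBI, which changed in expression as described below, held none of these letters.

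After rutaecarpine, TGFBI and TGFB3 fell and INHBA, which was scarce in the control libraries, was higher. The other 7 genes did not pass the test with all 6 libraries. Changed genes were those with an adjusted p of 0.05 or less in limma on log2(TPM + 1), adjusted by the Benjamini-Hochberg method over the 14377 tested genes. Genes were tested if 3 or more libraries reached 1 TPM, as they did for all 10, though INHBA did so only through the rutaecarpine libraries, where it was high. The 2 genes called lower stand against a background of 4.68% of all tested genes. The background of genes called higher was 4.6%, but nothing is read from the call of INHBA against it, since INHBA could be tested only because it was high after rutaecarpine. With 1 added to each TPM, only INHBA changed by more than 1 on the log2 scale, the size used here for a differentially expressed gene (DEG). Of all tested genes, 2.01% were higher DEGs and 1.5% lower DEGs, and INHBA is not read against this share either. With 0.1 added instead, TGFB3 also passed this size, with a log2 fold change of -1.15 (adjusted p = 0.0198 from limma). That split of 289 higher and 216 lower DEGs became 251 and 295 when the libraries were centred on their medians. The groups lay apart for INHBA, which was higher, and for TGFBI, TGFB3 and TGFB1, which were lower. Among all tested genes, 19.3% lay apart in the higher direction and 14.0% in the lower. Because of how INHBA entered the test, it is not read against the 19.3%. The median log2 fold change was -0.21 over the 10 genes and 0.08 over all tested genes.

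**Figure D2:**
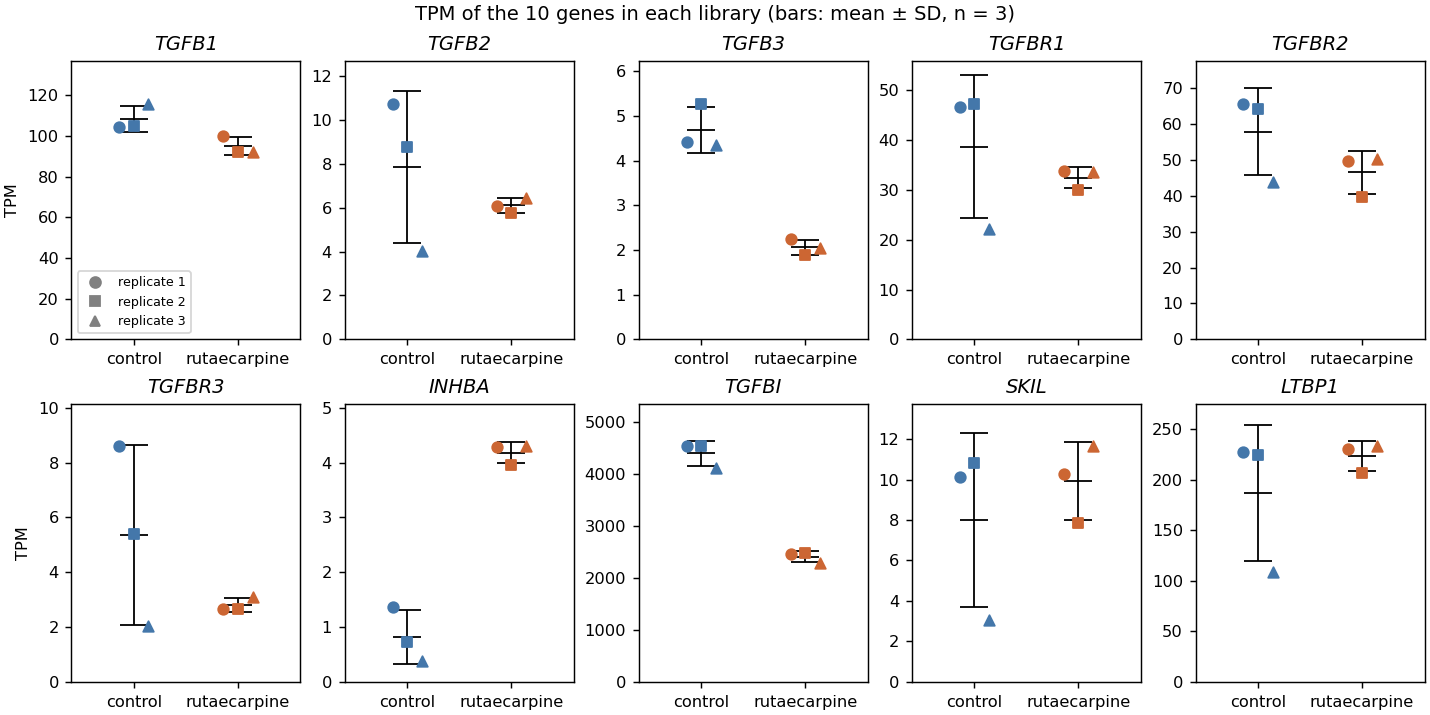
TPM (y axis, from 0 in each panel) of the 10 genes in the 3 control and 3 rutaecarpine libraries, one panel per gene, with the mean and SD (n = 3) as bars and the replicate number as the symbol. INHBA lies higher and TGFBI, TGFB3 and TGFB1 lower in every rutaecarpine library than in every control library. Control replicate 3 (triangle) is the lowest control for every gene but TGFB1, and lies far below the other controls for TGFB2, TGFBR1, TGFBR3, INHBA, LTBP1 and SKIL.

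INHBA encodes the beta A subunit, which forms activin A as a homodimer and inhibin A together with the alpha subunit. INHBA (ENSG00000122641, chromosome 7, 41667168 to 41705834, minus strand, GRCh38) was measured at 1.36, 0.73 and 0.39 TPM in the control libraries, in the order of their replicate numbers, and at 4.28, 3.96 and 4.30 TPM after rutaecarpine. The rutaecarpine libraries lay close together and the control libraries were spread over low values. The mean TPM rose from 0.827 ± 0.492 (SD, n = 3) to 4.18 ± 0.19 (SD, n = 3), a ratio of 5.06, or of 4.00 without control replicate 3. On the log2(TPM + 1) scale this was a change of 1.54 (95% interval 1.00 to 2.07, adjusted p = 0.00756 from limma). Without control replicate 3 it was 1.36 (adjusted p = 0.00387), and with the length and GC correction 1.32 (adjusted p = 0.00258). INHBA was called in all 6 fits that left out 1 library, which tested the genes chosen on all 6 libraries. INHBA reached the minimum TPM in all rutaecarpine libraries but in only 1 control library. It could therefore enter the test and these 6 fits only through the group where it was high.

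TGFB3 encodes TGF-beta 3, an isoform best known from palate and lung development. TGFB3 (ENSG00000119699, chromosome 14, 75958099 to 75982991, minus strand) had a TPM of 4.42, 5.28 and 4.36 in the control libraries and 2.24, 1.89 and 2.05 after rutaecarpine. The values were low in both groups, and every control value exceeded every rutaecarpine value. The mean TPM fell from 4.69 ± 0.51 to 2.06 ± 0.18 (SD, n = 3 each), which was -0.89 on the log2(TPM + 1) scale (95% interval -1.28 to -0.51, adjusted p = 0.0175 from limma). The mean TPM in the control group was 2.28 times that after rutaecarpine. The call was lost in 5 of the 6 fits that left out 1 library, where the adjusted p reached 0.0877, and was kept without control replicate 3 (log2 fold change -0.93, adjusted p = 0.00983). With the length and GC correction it was also -0.93 (adjusted p = 0.00293). Control replicate 3 was near control replicate 1 for this gene.

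TGFB1 encodes TGF-beta 1, the isoform with the widest expression in adult tissue. TGFB1 (ENSG00000105329, chromosome 19, 41301587 to 41353911, minus strand) had a TPM of 104.38, 104.85 and 115.91 in the control libraries and 99.92, 92.32 and 92.25 after rutaecarpine. The groups did not overlap, but the difference was small and did not pass the test. The mean TPM was 108 ± 6.5 in the control group and 94.8 ± 4.4 after rutaecarpine (SD, n = 3 each), with a log2 fold change of -0.19 (95% interval -0.39 to 0.01, adjusted p = 0.224 from limma). It was -0.14 (adjusted p = 0.212) without control replicate 3 and -0.18 (adjusted p = 0.118) with the length and GC correction. Exons of TGFB1 overlap those of HNRNPUL1 on the opposite strand, which had 150 to 174 TPM in the control libraries and 121 to 149 TPM after rutaecarpine. Whether the counting used the strand is not given in the sources used here, so reads of the overlapping stretch may be shared between them.

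TGFB2 encodes TGF-beta 2, first known in glioblastoma as a T-cell suppressor factor. TGFB2 (ENSG00000092969, chromosome 1, 218346235 to 218444619, plus strand) had a TPM of 10.75, 8.77 and 4.01 in the control libraries and 6.10, 5.78 and 6.45 after rutaecarpine. Control replicates 1 and 2 lay above all rutaecarpine libraries and control replicate 3 lay below all of them. The change was -0.23 on the log2(TPM + 1) scale (95% interval -0.97 to 0.51, adjusted p = 0.689 from limma). Without control replicate 3 it was -0.59 (adjusted p = 0.0297), and with the length and GC correction -0.43 (adjusted p = 0.0810). Without control replicate 1, the log2 fold change of TGFB2 turned to 0.02. TGFB2 shares exon sequence on the same strand with TGFB2-OT1, listed at 0.71 to 3.01 TPM over the 6 libraries, so the division of reads between them is uncertain.

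The TGF-beta isoforms were also compared with one another by their shares of their summed TPM, in which the scaling of a library cancels out. A deviation that differs between genes does not cancel, and control replicate 3 had 1.11 times the mean of the other controls for TGFB1 but 0.411 times for TGFB2. The summed TPM of TGFB1, TGFB2 and TGFB3 was 119.55, 118.9 and 124.28 in the control libraries and 108.26, 99.99 and 100.75 after rutaecarpine. The sum was lower in every rutaecarpine library (exact permutation test, two-sided, p = 0.1, which is the smallest p that 3 libraries against 3 allow). TGFB1 made up most of the sum in every library, with 87.3%, 88.2% and 93.3% in the control group and 92.3%, 92.3% and 91.6% after rutaecarpine (exact permutation p = 0.4). Its mean share was 2.48 percentage points higher after rutaecarpine with all libraries and 4.32 higher without control replicate 3, where every rutaecarpine library lay above both controls (exact permutation p = 0.2, the smallest that 3 libraries against 2 allow). The share of TGFB3 was 3.70%, 4.44% and 3.51% in the control group and 2.07%, 1.89% and 2.03% after rutaecarpine. The share of TGFB3 thus lay lower in every rutaecarpine library, with means of 3.88% ± 0.49 and 2.00% ± 0.09 (SD, n = 3 each, exact permutation p = 0.1). The share of TGFB2 was 8.99%, 7.38% and 3.23% in the control group and 5.63%, 5.78% and 6.40% after rutaecarpine, and the groups overlapped (exact permutation p = 0.7).

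TGFBR1 encodes the type I receptor kinase. TGFBR1 (ENSG00000106799, chromosome 9, 99104038 to 99154192, plus strand) had a TPM of 46.60, 47.30 and 22.06 in the control libraries and 33.82, 29.98 and 33.47 after rutaecarpine. The rutaecarpine libraries lay between control replicate 3 and the other controls. With all libraries the log2 fold change was -0.17 (95% interval -0.84 to 0.50, adjusted p = 0.741 from limma), and it was -0.52 (adjusted p = 0.00744) without control replicate 3 and -0.39 (adjusted p = 0.0258) with the length and GC correction.

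TGFBR2 encodes the type II receptor, which binds the ligand first. TGFBR2 (ENSG00000163513, chromosome 3, 30606502 to 30694142, plus strand) had a TPM of 65.67, 64.05 and 43.79 in the control libraries and 49.69, 39.67 and 50.29 after rutaecarpine. Again control replicates 1 and 2 lay above all rutaecarpine libraries, while control replicate 3 lay among them. With all libraries the log2 fold change was -0.29 (95% interval -0.72 to 0.13, adjusted p = 0.373 from limma), and it was -0.48 (adjusted p = 0.0283) without control replicate 3 and -0.39 (adjusted p = 0.0127) with the length and GC correction.

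TGFBR3 encodes betaglycan, a co-receptor that presents TGF-beta 2 to the type II receptor and also binds inhibin. TGFBR3 (ENSG00000069702, chromosome 1, 91680343 to 91906335, minus strand) had a TPM of 8.60, 5.40 and 2.05 in the control libraries and 2.66, 2.67 and 3.10 after rutaecarpine. The ratio of the highest to the lowest control library was the largest among the 3 receptors, and the rutaecarpine libraries lay just above control replicate 3. With all libraries the log2 fold change was -0.59 (95% interval -1.52 to 0.34, adjusted p = 0.408 from limma), and it was -1.04 (adjusted p = 0.0140) without control replicate 3 and -0.74 (adjusted p = 0.0738) with the length and GC correction.

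The balance between the receptors was also compared within each library. The log2 ratio of the TPM of TGFBR1 to that of TGFBR2 was -0.49, -0.44 and -0.99 in the control libraries and -0.56, -0.40 and -0.59 after rutaecarpine (exact permutation p = 0.8). The groups overlapped, and without control replicate 3 the difference between the group means changed from 0.12 to -0.05. The log2 ratio of TGFBR3 to TGFBR2 was -2.93, -3.57 and -4.42 in the control libraries and -4.22, -3.89 and -4.02 after rutaecarpine (exact permutation p = 0.5). Without control replicate 3 the rutaecarpine libraries all lay below the controls for this ratio, with a difference of -0.80 between the means (exact permutation p = 0.2).

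LTBP1 encodes a matrix protein that binds latent TGF-beta through its propeptide. LTBP1 (ENSG00000049323, chromosome 2, 32946972 to 33399509, plus strand) had a TPM of 227.05, 224.44 and 108.92 in the control libraries and 230.56, 206.79 and 233.31 after rutaecarpine. All libraries but control replicate 3 lay close to one another. With all libraries LTBP1 had a log2 fold change of 0.33 (95% interval -0.31 to 0.98, adjusted p = 0.499 from limma), and of -0.02 (95% interval -0.19 to 0.15, adjusted p = 0.906) without control replicate 3. It was 0.22 (adjusted p = 0.349) with the length and GC correction.

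SKIL encodes SnoN, which represses SMAD complexes and is itself a gene that TGF-beta induces. SKIL (ENSG00000136603, chromosome 3, 170357678 to 170396835, plus strand) had a TPM of 10.12, 10.80 and 3.08 in the control libraries and 10.26, 7.85 and 11.65 after rutaecarpine. Control replicate 3 was again the only library far from the rest. With all libraries SKIL had a log2 fold change of 0.41 (95% interval -0.56 to 1.39, adjusted p = 0.578 from limma), and of -0.08 (adjusted p = 0.783) without control replicate 3. It was 0.18 (adjusted p = 0.572) with the length and GC correction.

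TGFBI encodes a secreted matrix protein that binds collagens and integrins and was named for its induction by TGF-beta. TGFBI (ENSG00000120708, chromosome 5, 136028895 to 136063818, plus strand) had a TPM of 4544.32, 4544.62 and 4122.62 in the control libraries and 2469.78, 2478.72 and 2300.05 after rutaecarpine. It was the most abundant of the 10 genes in every library, with a mean TPM above that of 99.8% of the tested genes in the control group and 99.7% after rutaecarpine. The mean TPM fell by 45.1%, from 4404 ± 244 to 2416 ± 101 (SD, n = 3 each). On the log2 scale TGFBI changed by -0.87 (95% interval -1.05 to -0.68, adjusted p = 0.00138 from limma), -0.91 (adjusted p = 0.000172) without control replicate 3 and -0.96 (adjusted p = 0.00181) with the length and GC correction. TGFBI was called in all 6 fits that left out 1 library.

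Without control replicate 3, the number of the 10 genes called lower rose from 2 to 6, and the number called higher stayed at 1. The genes added were TGFB2, TGFBR1, TGFBR2 and TGFBR3. More genes of the whole table also passed the test without this library, with 10.3% of all tested genes called lower and 8.2% called higher. The 3 rutaecarpine libraries lay below both remaining controls for 7 of the 10 genes, that is for all TGFB and TGFBR genes and TGFBI, against 26.5% of all tested genes. The median log2 fold change without control replicate 3 was -0.50 over the 10 genes and -0.01 over all tested genes. With the length and GC correction on all 6 libraries, 4 of the 10 genes were called lower, namely TGFBI, TGFB3, TGFBR1 and TGFBR2, and 1 was called higher, INHBA. In that fit 10.2% of all genes were called lower and 9.12% higher.

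**Figure D3:**
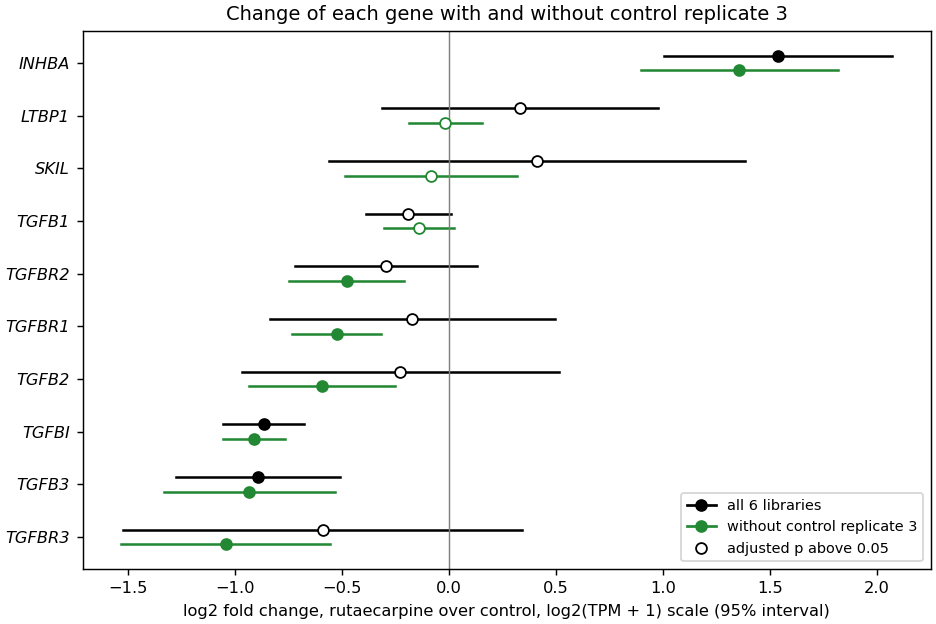
Log2 fold change of each gene, rutaecarpine over control on the log2(TPM + 1) scale (x axis), with its 95% interval, from all 6 libraries (black) and without control replicate 3 (green), where an open circle marks an adjusted p above 0.05. INHBA, TGFBI and TGFB3 are called in both fits, and TGFB2, TGFBR1, TGFBR2 and TGFBR3 only in the fit without control replicate 3.

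By level per length, the order in the control group was TGFBI, LTBP1, TGFB1, TGFBR2, TGFBR1, SKIL, TGFB2, TGFBR3, TGFB3 and INHBA, from the highest mean TPM to the lowest. In that order the ranges of LTBP1 and TGFB1 overlapped, as did those of TGFBR2 and TGFBR1, and those of each neighbouring pair from SKIL to TGFB3. After rutaecarpine the ranges of no neighbours overlapped, and the order changed at its lower end, where INHBA stood above TGFBR3 and TGFB3. The mean TPM of INHBA exceeded that of 1.34% of the tested genes in the control group and of 23.7% after rutaecarpine. That of TGFB3 exceeded 26.4% and 12.1% of them.

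Lists of 125 other genes of the pathway were examined by role, of which 96 were tested, 19 were called higher and 15 lower, against the 4.6% and 4.68% of all tested genes given above. Their median log2 fold change was 0.15, against 0.08 over all tested genes. Without control replicate 3 the median was -0.06, with 22 genes called higher and 25 lower, where 8.2% and 10.3% of all tested genes were. With the length and GC correction the median was 0.06. Over all tested genes the median was -0.01 without control replicate 3 and 0.01 with the correction. Of 11 other ligand genes, 3 were tested and 3 were at 0 in every library. GDF15, a distant member of the family that rises in many kinds of cell stress, was the only one called. It had a TPM of 81.33, 101.5 and 144.1 in the control libraries and 331.1, 447.1 and 440.3 after rutaecarpine. Every rutaecarpine library was above every control library, with a log2 fold change of 1.92 (adjusted p = 0.00287 from limma). INHA, the alpha subunit that turns activin into inhibin, did not exceed 0.42 TPM, and INHBB, the other main activin subunit, did not exceed 0.09 TPM. INHBE, a further activin subunit, had 12.97 to 17.11 TPM in the control libraries and 16.94 to 18.44 TPM after rutaecarpine and was not called.

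Among 9 other receptor and co-receptor genes, 6 were tested, 1 was called higher and 1 lower, where 4.6% and 4.68% of all tested genes were. ENG, the co-receptor endoglin, had 44.0 ± 3.77 TPM in the control group and fell to 30.1 ± 2.04 TPM (SD, n = 3 each), with a log2 fold change of -0.53 (adjusted p = 0.0272 from limma). ACVR1, a type I receptor that mainly serves BMP ligands, rose from a mean of 44.0 ± 5.67 to 63.4 ± 2.91 TPM, which on the log2 scale was 0.52 (adjusted p = 0.0366 from limma). Of the 6 fits that left out 1 library, ENG and ACVR1 each kept the call only in that without control replicate 3. The activin receptor genes were not called. ACVR1B, the type I receptor for activin, had 6.33 to 9.31 TPM in the control libraries and 8.75 to 10.2 TPM after rutaecarpine, and ACVR2A had 1.82 to 2.73 and 3.01 to 3.83 TPM.

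Of 20 genes for the storage and release of latent TGF-beta, 17 were tested, 4 were called higher and 1 lower, where 4.6% and 4.68% of all tested genes were. THBS1 encodes thrombospondin 1, which can activate latent TGF-beta, and had a log2 fold change of 2.55 (adjusted p = 0.00517 from limma). MMP14, a membrane-bound protease, rose from a mean of 313 ± 33.7 to 667 ± 35.7 TPM (SD, n = 3 each), which on the log2 scale was 1.09 (adjusted p = 0.00122 from limma). THBS1 and MMP14 were called in all 6 fits that left out 1 library. ITGB8 encodes the integrin beta 8 subunit, whose dimer with the alpha V subunit releases TGF-beta. It rose from a mean of 3.66 ± 1.64 to 10.6 ± 1.04 TPM, which on the log2 scale was 1.39 (adjusted p = 0.0318 from limma). The integrin beta 3 subunit gene ITGB3 had a log2 fold change of 1.09 (adjusted p = 0.0487 from limma), and both integrin genes were called in 1 of the 6 fits, that without control replicate 3. The alpha V subunit gene ITGAV, chosen after its values were seen because it is the partner of both, had a TPM of 58.99, 58.24 and 15.90 in the control libraries and 60.75, 52.74 and 66.00 after rutaecarpine and was not called (adjusted p = 0.456 from limma). LTBP4, a relative of LTBP1, fell from a mean of 94.5 ± 2.57 to 64.4 ± 4.79 TPM, which on the log2 scale was -0.55 (adjusted p = 0.0106 from limma), and lost its call without control replicate 1 or rutaecarpine replicate 1 (adjusted p = 0.0530 and 0.0566). Without control replicate 3, 4 of the 17 genes were called higher and 3 lower, where 8.2% and 10.3% of all tested genes were. With the length and GC correction 5 were called higher and 4 lower, where 9.12% and 10.2% of all genes were.

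Of 9 genes for extracellular inhibitors, 3 were tested and 0 were called by limma, with 0 at an unadjusted p under 0.05. Of all tested genes, 4.6% were called higher and 4.68% lower. FST encodes follistatin, which binds and blocks activin. Its TPM was 12.27, 11.84 and 11.86 in the control libraries and 9.43, 8.58 and 11.10 after rutaecarpine. The groups did not overlap, with a log2 fold change of -0.29 (95% interval -0.62 to 0.05, adjusted p = 0.278 from limma).

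Of 17 signal transduction genes, 16 were tested, 1 was called higher and 0 were called lower by limma, with 2 at an unadjusted p under 0.05 in all. Of all tested genes, 4.6% were called higher and 4.68% lower. The SMAD genes that carry the signal were not called. The mean TPM of SMAD2 was 92.3 ± 19.6 in the control group and 101 ± 12.6 after rutaecarpine (SD, n = 3 each, adjusted p = 0.639 from limma). That of SMAD3 was 23.0 ± 7.0 and 24.1 ± 5.5 (adjusted p = 0.866), and that of SMAD4 was 26.6 ± 10.2 and 32.4 ± 5.1 (adjusted p = 0.519). The called gene, HGS, encodes an endosomal sorting protein and had a log2 fold change of 0.34 (adjusted p = 0.0399 from limma), which was called in 1 of the 6 fits that left out 1 library, that without control replicate 3.

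Of 13 genes for intracellular feedback inhibitors, 11 were tested and 2 were called higher, where 4.6% of all tested genes were. TGIF1 encodes a repressor of SMAD-driven transcription and had a TPM of 95.31, 88.98 and 97.89 in the control libraries and 170.3, 173.4 and 202.1 after rutaecarpine. Its log2 fold change was 0.94 (adjusted p = 0.00176 from limma), and it was called in all 6 fits that left out 1 library. SMAD7 encodes the inhibitory SMAD that blocks TGFBR1 and is induced by TGF-beta. Its TPM was 10.13, 10.56 and 9.01 in the control libraries and 16.02, 15.69 and 14.46 after rutaecarpine. All rutaecarpine values were above all control values, with a log2 fold change of 0.59 (adjusted p = 0.0357 from limma), though SMAD7 was called in only 1 of the 6 fits, that without control replicate 3.

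Of 46 genes that TGF-beta can induce or repress, 40 were tested, 10 were called higher and 13 lower, where 4.6% and 4.68% of all tested genes were. The median log2 fold change was -0.29. Without control replicate 3 it was -0.46, with 13 genes higher and 19 lower, where 8.2% and 10.3% of all tested genes were. The list was chosen with earlier results of these data known and mixes genes that many other signals control. CCN2 encodes connective tissue growth factor, a target of both SMAD and YAP proteins. Its TPM was 17.52, 16.08 and 13.98 in the control libraries and 5.25, 4.42 and 5.45 after rutaecarpine. The fall of CCN2, with a log2 fold change of -1.48 (adjusted p = 0.00207 from limma), was called in all 6 fits.

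The largest changes among the called targets were in both directions. LIF, a cytokine that sustains glioma-initiating cells, rose with a log2 fold change of 3.02, and HAS2, a hyaluronan synthase, with 1.62 (adjusted p = 0.000724 and 0.00990 from limma). TSC22D1, a transcription factor named for its stimulation by TGF-beta, rose from a mean of 47.2 ± 3.65 to 114 ± 7.17 TPM (SD, n = 3 each), which on the log2 scale was 1.25. The falls of ID3 and ID1, inhibitors of differentiation that respond mainly to BMP ligands, had log2 fold changes of -2.52 and -1.99. In the 6 fits that left out 1 library, LIF, TSC22D1, ID3 and ID1 were called in all and HAS2 in 4, losing its call without rutaecarpine replicate 1 or 2 (adjusted p = 0.0560 and 0.0555 from limma).

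**Figure D4:**
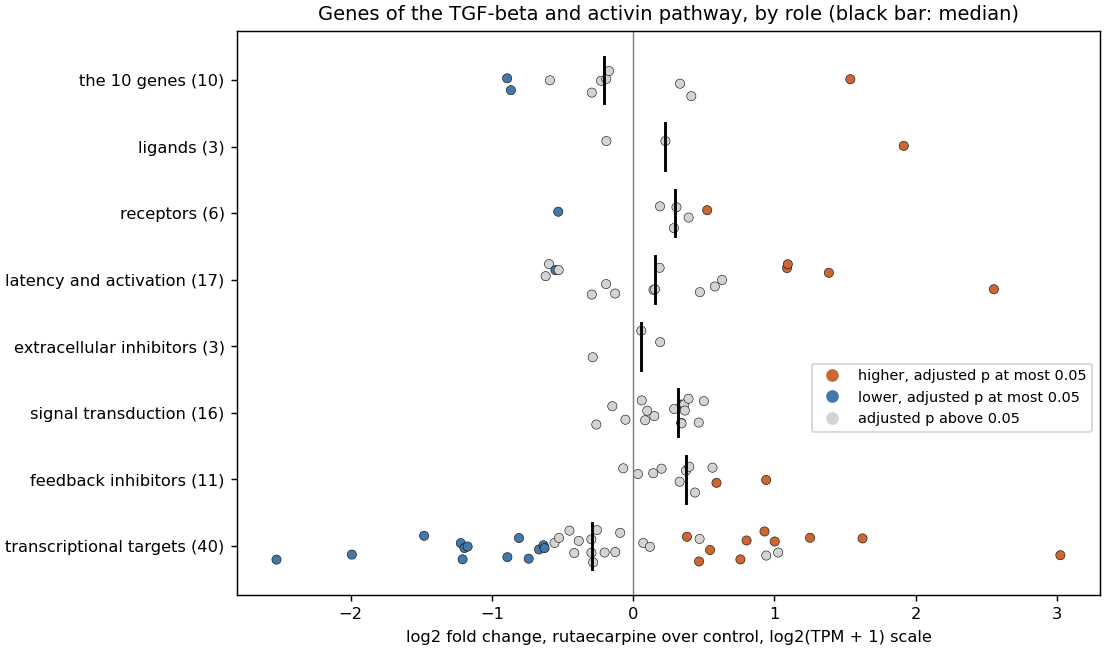
Log2 fold change of each tested gene, rutaecarpine over control on the log2(TPM + 1) scale (x axis), for the 10 genes and for 7 lists of other pathway genes by role (y axis, number tested in parentheses), with called genes in orange (higher) or blue (lower) and the median as a black bar. In this fit with all 6 libraries, called genes of the latency and activation list lie mostly to the right, and those of the target list on both sides.

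Reference genes were read in the same libraries. CYP1B1, a gene that AhR induces, had a TPM between 42.8 and 84.67 in the control libraries and between 335.4 and 422.9 after rutaecarpine (adjusted p = 0.00191 from limma). GAPDH, an abundant glycolytic gene, had a log2 fold change of -0.15 and was not called by limma.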

How the data were processed

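RNA of 6 U87 samples, 3 per group by the labels, was sequenced by the authors. Per the labels they used RSEM, which shares out reads with several matching genes, and GRCh38.p13, and they deposited TPM values, 1 column per library. Other settings and the strandedness are not given in the sources used here. The labels also name DESeq2 and edgeR, which need counts and were not used here. The TPM sums were 990889 to 995734 and 0 columns were unmatched. Names of rows without one came from a reference table by Ensembl identifier. Positions and lengths came from GENCODE 29 (GRCh38), promoter windows from RefSeq (GRCh38.p14).

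Values were transformed to log2(TPM + 1), which understates changes of weakly expressed genes. The 14377 genes that reached 1 TPM in 3 or more libraries were compared with limma 3.58.1 in R 4.3.3 (mean-variance trend, two-sided, Benjamini-Hochberg adjustment). The procedure was tested on simulated data first. These took their spread from the libraries other than control replicate 3, so how the fit behaves with that library was not tested. Shares and ratios were compared with exact permutation tests (scipy 1.17.1). Figures used matplotlib 3.10.9.

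The genes and lists were chosen with earlier results of these data known. Named genes were the 10 genes, SMAD2, SMAD3, SMAD4, SMAD7, CCN2 and FST, of each list at most the 6 called genes with the largest changes, and GAPDH and CYP1B1. A further gene that the rule names is not reported here. Genes named outside this rule are marked in the text, except INHA, INHBB, INHBE, ACVR1B, ACVR2A, HNRNPUL1 and TGFB2-OT1, which were also chosen after their values were seen. Alternatives were median centring, no trend, no filter, a minimum TPM in every library, a pseudocount of 0.1, the replicate number as a block, library weights and leaving out each library. A spline correction for transcript length and GC content was added once the data had shown how control replicate 3 differed.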

Additional observations from a re-analysis of the deposited data

How the results depend on the processing

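Of the 10 genes, INHBA was called higher under every alternative that tested it, and 0 genes were called higher with a minimum TPM in every library, where INHBA was not tested. Except without a filter, INHBA entered these fits only through the rutaecarpine libraries, so nothing is read from its repeated calls. The 2 genes called lower became 1 without a filter (TGFB3 adjusted p = 0.0725), 4 with the length and GC correction (10.2% of all genes), 6 with library weights (weight 0.121 for control replicate 3, with 14.1% of all tested genes called lower in place of 4.68%) and 1 to 6 when leaving out 1 library. TGFBI was called lower in all of these fits. Libraries with the same replicate number did not consistently deviate alike from their group means (correlations of the deviations 0.116, -0.266 and -0.215). Whether they shared a culture or a batch was not tested. With the replicate block, genes called lower were 1 (TGFB3 adjusted p = 0.115) and DEGs were 318 in place of 505. Under the block the numbers called were 0 receptor genes, 2 latency genes, 0 signal transduction genes, 1 feedback gene and 13 targets, against 2, 5, 1, 2 and 23. Of all tested genes, 1.64% were called higher under the block and 1.34% lower. With median centring, receptor, signal transduction and feedback genes called were 1, 0 and 1 (4.12% of all tested genes higher, 5.47% lower). Without the trend, receptor and signal transduction genes called were 1 and 0 (4.13% of all tested genes higher, 4.30% lower). Without a filter, receptor, latency, signal transduction and feedback genes called were 1, 3, 0 and 1. In that fit 1.544% of the 29330 tested genes were called higher and 1.497% lower. With library weights, ligand, latency and signal transduction genes called were 2, 11 and 2 (13.5% of all tested genes higher, 14.1% lower). With the length and GC correction, latency and signal transduction genes called were 9 and 2 (9.12% of all tested genes higher, 10.2% lower). Leaving out 1 library gave 353 to 610 DEGs, 0 to 2 receptor genes, 2 to 7 latency genes, 0 to 2 signal transduction genes, 1 to 3 feedback genes and 14 to 32 targets, each highest without control replicate 3. Of all tested genes, 1.93% to 8.20% were called higher and 1.82% to 10.3% lower in these fits, also highest without control replicate 3. Some differences changed sign, and none of these was called in the fit where its sign changed. Leaving out 1 library, the log2 fold change ranged from -0.593 to 0.0222 for TGFB2, from -0.523 to 0.0107 for TGFBR1, from -0.0846 to 0.681 for SKIL, from -0.0161 to 0.510 for LTBP1, from -0.0384 to 0.255 for SMAD2 and from -0.165 to 0.276 for SMAD3. It was -0.0737 for SMAD2 and -0.0266 for SMAD3 with the length and GC correction, -0.00813 for SMAD3 with centring and -0.0479 with library weights. The difference in the share of TGFB2 ranged from -2.24 to 0.638 percentage points, reversed without control replicate 1, and that in the log2 ratio of TGFBR1 to TGFBR2 from -0.0494 to 0.227, reversed without control replicate 3. The cause of these changes was not tested. Depth limits could not be set because TPM keep no read numbers.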
